A study of Mus musculus with 2 samples.

Results

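The genes described here are 37 genes of DNA damage signalling and DNA repair, measured in leukaemic B cells of mice (B-cell acute lymphoblastic leukaemia) with a high and a low SoNar signal. They were chosen by name, as probes whose RefSeq accession maps to a listed gene symbol or a synonym of it, a rule that uses no measured value, though the list was drawn up with earlier results of these data known. All 37 were measured on both arrays, of 10517 genes measured on both arrays in the series. SoNar is a genetically encoded fluorescent sensor of the cytosolic NADH to NAD+ ratio. The SoNar-high and SoNar-low cells were both sorted by the sensor's excitation ratio from the bone marrow of C57BL mice of 8 weeks. How the leukaemia was induced, and how many mice gave cells, is not given in the sources used here. The sample titles call the SoNar-high sample N-myc-high and the SoNar-low sample N-myc-low, a grouping the labels do not explain.

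Each group had 1 array, a 1-colour Agilent mouse array hybridised with Cy3-labelled RNA. There is therefore no spread between replicates, no test was made, and a difference between the arrays is not separated from one between scan sessions: the scan session and the group cannot be told apart. The share of the 43020 gene spots well above background was 72.9% for SoNar-high and 44.8% for SoNar-low. The values are the scanner's processed signal, a background-subtracted brightness on a linear scale. A log2 difference is the log2 signal relative to the array's 75th percentile in SoNar-high cells minus that in SoNar-low cells. The signals given below are those before scaling, and the 75th percentile was 525.0 in SoNar-high and 474.8 in SoNar-low cells, so equal signals give a log2 difference just under 0.

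DNA repair is divided by the lesion it answers. Breaks through both strands are rejoined by end joining, or copied from a sister chromatid by homologous recombination. Damaged or misplaced bases are removed by base excision, bulky lesions by nucleotide excision, replication errors by mismatch repair and linked strands by the Fanconi anaemia proteins, while the checkpoint kinases hold the cell cycle. B cell precursors depend on end joining to complete the rearrangement of their immunoglobulin genes, and many repair factors also serve normal replication in dividing cells.

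None of the 37 genes differed by 2-fold between the arrays, so 0 were higher and 0 lower by that measure. A 2-fold difference was found for 4.87% of all measured genes in the higher direction and for 1.68% in the lower. At a smaller size of 1.5-fold, which was taken after the values were seen, 1 repair gene was higher and 7 were lower in SoNar-high cells, against 11.4% of all genes higher and 16.6% lower. The 1 higher gene was Rpa2, and the 7 lower genes were Ddb1, Rpa1, Fanca, Msh6, Xrcc5, Ung and Lig1. With median scaling 0 of the 37 were 2-fold higher and 18 were 2-fold lower, against 1.32% and 31.4% of all genes. At 1.5-fold 0 were higher and 33 lower with that scaling, which moved the median of all genes by -0.61. The 1.5-fold share of all genes with median scaling is not given here, so nothing about repair genes is read from that count.

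The 37 genes had a median log2 difference of -0.37, beside -0.17 for all measured genes. Among the 37, 32 lay below 0 (86.5%), as did 63.2% of all genes, and 24 lay below the median of all genes. The difference varied with brightness over the whole array. All genes in the 3 highest deciles of mean level had a median log2 difference of -0.34, against -0.08 in the lower deciles. The repair genes split the same way, with a median of -0.50 for the 17 in the 3 highest deciles and -0.18 for the other 20. Measured against the median of its own decile, a repair gene lay lower in 25 cases and higher in 12, with a median gap of -0.14 on the log2 scale. These counts and medians describe the 2 arrays, and nothing particular to repair genes is called from them.

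**Figure D1:**
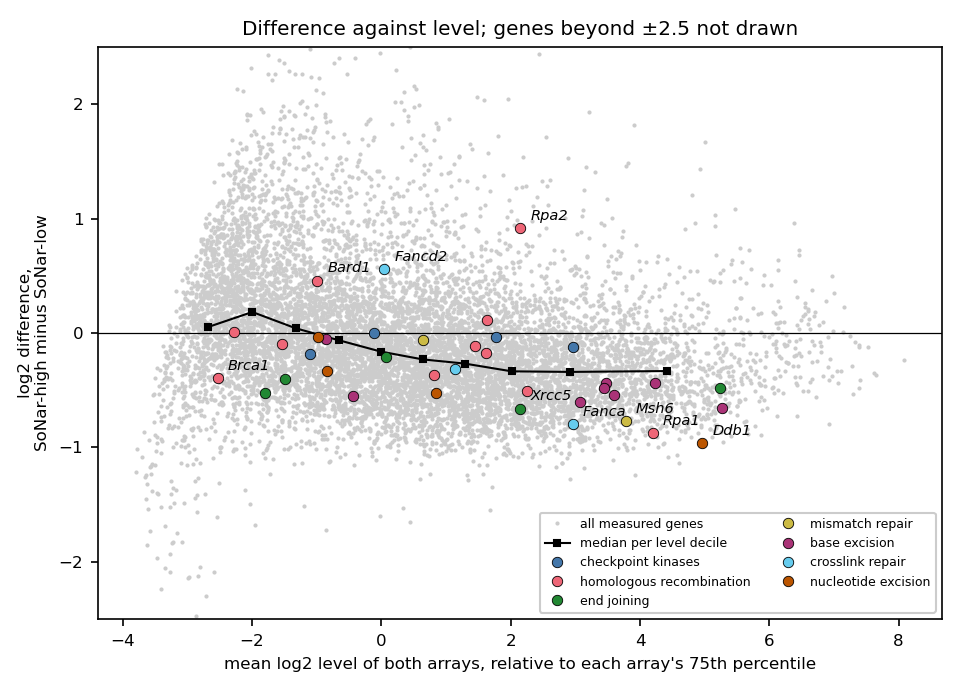
Log2 difference (SoNar-high minus SoNar-low, vertical axis) against the mean log2 level of both arrays (horizontal axis, relative to each array's 75th percentile) for all measured genes in grey and the repair genes coloured by route, with 1 array per group. The black line joins the medians of all genes per decile of level and drops from 0.18 in decile 2 to -0.34 in decile 9, and Rpa2 stands above it while Ddb1 and Rpa1 stand below it.

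The errors within these arrays were of different sizes. Repeat spots of a probe gave a log2 difference with a median SD of 0.15 over 193 probes. Different probes of a gene were much further apart: over 2021 genes with exactly 2 measured probes, the gap between the log2 differences of the probes had a median of 0.43, and 10% of genes had a gap above 1.15. Among 735 such genes with both probes brighter than the 75th percentile, the median gap was 0.37 and 10% of genes had a gap above 0.90. Of the repair genes 31 rest on 1 probe. Their log2 differences, from -0.96 to 0.91, are all smaller in size than 1.15. The extremes, Ddb1 and Rpa2, are brighter than the 75th percentile on both arrays and lie just beyond the 0.90 of such genes. Each of them rests on 1 spot of 1 probe.

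Base excision repair was the largest group with a uniform sign: all 8 genes were below 0 in SoNar-high cells, with a median log2 difference of -0.51. Of all measured genes 63.2% were below 0. Ung, the glycosylase that removes uracil from DNA and acts in antibody diversification, had a processed signal of 16203 in SoNar-high cells and 23073 in SoNar-low cells, a log2 difference of -0.65. Ogg1, the glycosylase for oxidised guanine, had signals of 319.2 and 423.4 in SoNar-high and SoNar-low cells (log2 difference -0.55). Both glycosylases, which open the pathway, were thus lower in SoNar-high cells, by less than the 1.15 that the probes of a gene can lie apart. Apex1, the endonuclease that cuts the abasic site, had a signal of 8469 in SoNar-high cells, against 10391 in SoNar-low cells (log2 difference -0.44). Xrcc1, the scaffold of short-patch repair, had signals of 5298 in SoNar-high cells and 6970 in SoNar-low cells (-0.54 on the log2 scale). Its partner Lig3, the ligase that XRCC1 stabilises, had a difference of only -0.05, and its probes differed in sign, at 0.13 and -0.23.

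The remaining 3 genes of this group also copy and seal DNA in ordinary replication. Lig1, the replicative ligase, had signals of 3592 in SoNar-high cells and 4926 in SoNar-low cells, a log2 difference of -0.60. Fen1, the flap endonuclease, had signals of 5010 and 6132 in SoNar-high and SoNar-low cells (-0.44), and Pold1, the catalytic subunit of polymerase delta, 4829 and 6110 in the same order (-0.48). These values sit close together, but all 3 genes are bright ones, for which the median of all genes was itself about -0.34. Ung, Apex1 and Xrcc1 are in the highest decile of level, where that median was -0.33. Measured against the median of its own decile, a base excision gene lay lower in 7 cases and higher in 1, with a median gap of -0.18. With median scaling, quantile normalization and cyclic loess 8 of 8 genes were below 0, but there the median of all genes was itself -0.78, -0.21 and -0.13. After centring on the median of all genes, and with the brightest probe of each gene, 7 of 8 were below 0. Centring puts the median of all genes at 0, and with the brightest probe it was -0.21. The count was also 7 of 8 with the shared-spot percentile, the 75th percentile over only those spots that both arrays detected. With that percentile the median of all genes was 0.05. Of 13 further base excision genes 10 were measured, with a median of -0.16, 3 above 0 and 7 below. Nthl1, a glycosylase for oxidised pyrimidines, was the highest at 0.81 and Mbd4, a thymine glycosylase, the lowest at -0.36.

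**Figure D2:**
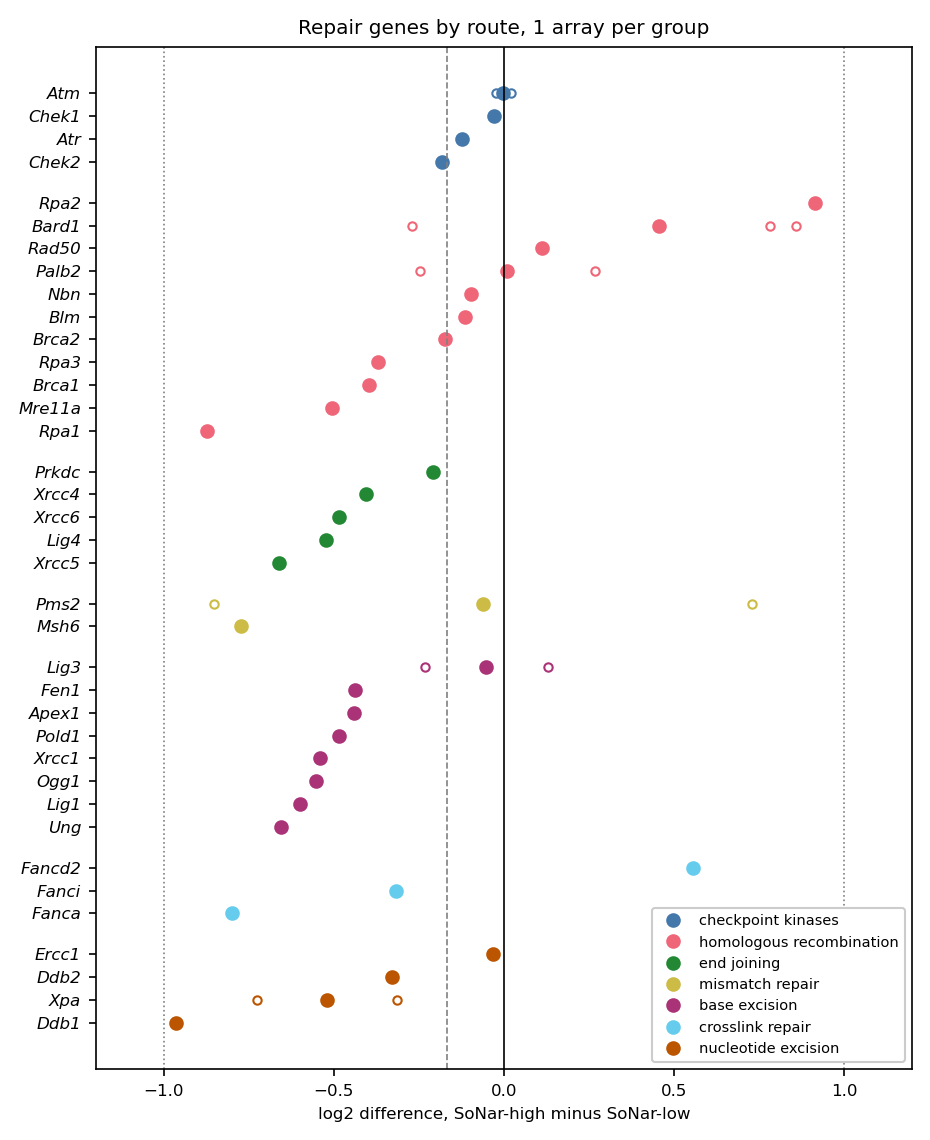
Log2 difference (horizontal axis, SoNar-high minus SoNar-low) of the 37 repair genes, grouped by route, with 1 array per group. Filled points are gene values, open points the single probes of the 6 genes with several measured probes. The dashed line is the median of all genes at -0.17, and the dotted lines mark a 2-fold difference, which no filled point reaches. All 8 base excision and all 5 end joining genes lie left of 0, as do 63.2% of all measured genes.

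End joining showed the same sign in all of its genes, below 0, as was the case for 63.2% of all genes. The 5 genes had a median log2 difference of -0.48, and each of them lay below the median of all genes. Xrcc5, the larger subunit of the Ku ring that binds broken ends, had signals of 1851 in SoNar-high cells and 2647 in SoNar-low cells (log2 difference -0.66). Xrcc6, the other Ku subunit, had signals of 16688 in SoNar-high cells and 21106 in SoNar-low cells (-0.48). The Ku subunits thus differed in the same direction, their log2 differences lying 0.18 apart. Lig4, the ligase of this route, had signals of 126.1 in SoNar-high cells and 164.0 in SoNar-low cells, a log2 difference of -0.52. Xrcc4, which holds that ligase at the break, had signals of 163.2 and 195.4 in SoNar-high and SoNar-low cells (-0.40).

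Prkdc, the catalytic subunit of DNA-dependent protein kinase, whose loss gives the scid mouse, is on the array in 10 spots of 1 probe. In SoNar-high cells the spots ranged from 485.4 to 549.3 around a median of 513.1, and in SoNar-low cells from 466.9 to 604.0 around 533.3. The spots of the 2 arrays overlap, and their mean log2 difference was -0.21 ± 0.12 (SD over 10 spots of 1 array pair). With the shared-spot percentile Prkdc turned to 0.00, while the other 4 genes kept their sign in all alternatives. The 8 further end joining genes were all measured, with a median of -0.17, 2 above 0 and 6 below, from Poll, a gap-filling polymerase, at 0.07 to Aplf, an end-binding accessory factor, at -0.46.

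**Figure D3:**
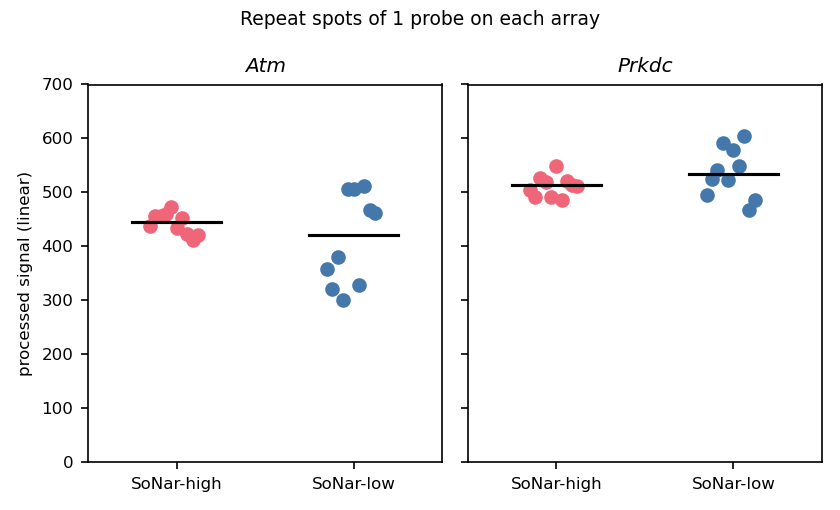
Processed signal (linear, vertical axis) of each of the 10 repeat spots of the probe for Atm and the probe for Prkdc, in SoNar-high cells (red, left) and SoNar-low cells (blue, right), with black bars at the medians. The spots overlap between the arrays for both genes, and the SoNar-low spots of Atm fall into a set from 301.7 to 380.5 and a set from 462.6 to 511.7.

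The genes of homologous recombination went in both directions: of 11 genes 4 were above 0 and 7 below, and the median log2 difference was -0.11. The widest split between partners of the complexes described here was within replication protein A, the trimer that coats single-stranded DNA in recombination, excision repair and replication. Rpa2, its regulatory subunit, had a signal of 3194 in SoNar-high cells and 1532 in SoNar-low cells, a log2 difference of 0.91 and the highest of all 37 genes. Rpa1, the large DNA-binding subunit, had signals of 7107 in SoNar-high cells and 11768 in SoNar-low cells (-0.87). Rpa3, the small subunit, had signals of 812.7 and 949.1 in SoNar-high and SoNar-low cells (-0.37). Rpa2 was thus the only subunit with the higher signal in SoNar-high cells.

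The split between Rpa2 and Rpa1 is a difference of 2 log2 differences, so shifting a whole array does not change it. It was 1.79 on the log2 scale, and 1.88 with quantile normalization, 1.77 with cyclic loess, 1.79 with normexp and 1.71 in the authors' deposited table. Each subunit is measured by 1 spot of 1 probe, and the split was noticed in these data. Among all measured genes, Rpa2 stood at percentile 93.98 of the log2 difference and Rpa1 at percentile 3.75.

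The promoters of the 3 subunits are shown because these genes encode 1 complex and differed in direction. They are from RefSeq, GRCm38.p6, and run 5′ to 3′ on the gene's strand, from 250 bases before the start to 50 after it: chr4:132768110-132768409 (+ strand) for Rpa2, chr11:75348334-75348633 (- strand) for Rpa1 and chr6:8259092-8259391 (- strand) for Rpa3. Capitals mark the CCAAT box, CCAAT or its reverse complement ATTGG.
Rpa2: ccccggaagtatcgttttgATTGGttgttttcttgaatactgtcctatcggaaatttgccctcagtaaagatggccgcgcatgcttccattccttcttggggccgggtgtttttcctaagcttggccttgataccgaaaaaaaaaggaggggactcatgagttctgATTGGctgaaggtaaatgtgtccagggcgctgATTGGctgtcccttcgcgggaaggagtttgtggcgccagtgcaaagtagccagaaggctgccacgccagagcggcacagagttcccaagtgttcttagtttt
Rpa1: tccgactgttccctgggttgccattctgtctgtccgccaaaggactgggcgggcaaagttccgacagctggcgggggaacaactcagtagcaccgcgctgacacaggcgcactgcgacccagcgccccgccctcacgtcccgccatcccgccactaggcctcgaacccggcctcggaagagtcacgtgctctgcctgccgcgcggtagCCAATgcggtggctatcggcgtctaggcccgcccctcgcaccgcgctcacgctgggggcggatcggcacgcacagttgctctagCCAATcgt
Rpa3: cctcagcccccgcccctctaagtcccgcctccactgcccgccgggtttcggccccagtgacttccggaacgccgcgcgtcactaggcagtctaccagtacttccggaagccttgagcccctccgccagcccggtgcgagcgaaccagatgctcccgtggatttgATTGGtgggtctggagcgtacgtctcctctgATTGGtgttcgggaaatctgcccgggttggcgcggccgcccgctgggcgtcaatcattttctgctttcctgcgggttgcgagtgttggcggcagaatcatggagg
The letters of the CCAAT box occur 3 times in the Rpa2 window and 2 times in each of the Rpa1 and Rpa3 windows. An E2F-like motif, TTTNNCGC or its reverse complement GCGNNAAA, is in none of the 3 windows, so the motifs have no overlap there. Of the 37 repair genes 32 have a promoter in the table, of which 18 hold the CCAAT letters (56.2%) and 7 the E2F-like letters (21.9%), against 41.1% and 5.93% of all 27025 genes with a promoter there. These matches are a description of the windows and say nothing of binding.

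**Figure D4:**
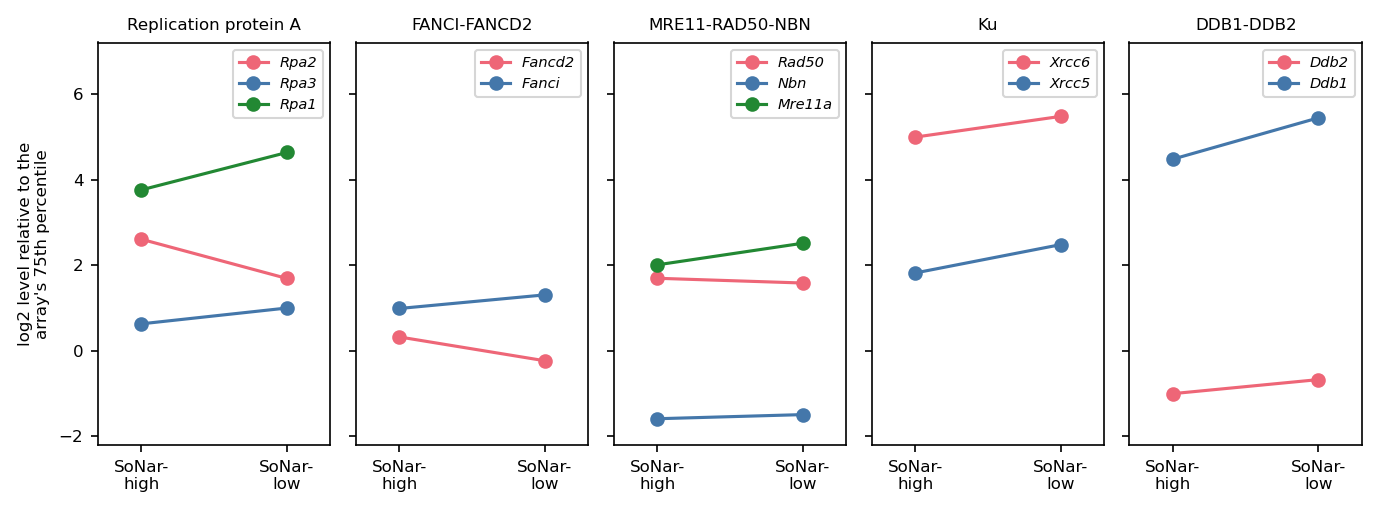
Log2 level of each subunit gene relative to its array's 75th percentile (vertical axis) in SoNar-high cells (left) and SoNar-low cells (right) for 5 repair complexes, with 1 array per group. Only the slopes can be compared between genes, since levels of different probes cannot. With this scaling Rpa2 and Fancd2 slope against their partners Rpa1 and Fanci, while Xrcc5 and Xrcc6 slope alike. Each of these genes rests on 1 probe, and the slope of Fancd2 turns with median scaling.

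The sensor of broken ends, a complex of MRE11, RAD50 and NBN, was also uneven. Mre11a, its nuclease, had signals of 2111 in SoNar-high cells and 2708 in SoNar-low cells (log2 difference -0.50). Nbn, which recruits the kinase ATM, had signals of 174.8 in SoNar-high cells and 169.0 in SoNar-low cells (-0.10). Rad50, the ATPase that tethers the ends, had signals of 1699 and 1423 in SoNar-high and SoNar-low cells (0.11), from the probe detected on both. A second Rad50 probe was well above background in SoNar-high cells alone. Of all 20618 genes with a named probe, 26.45% were detected in SoNar-high cells alone and 0.05% in SoNar-low cells alone. With the main scaling, the probe's level in SoNar-high cells was 2.32-fold the lowest detected level in SoNar-low cells. That figure depends on the scaling, since median scaling moves every log2 difference by -0.61. No fold difference is therefore read from this probe. The gap between Nbn and Mre11a turned from 0.41 to -0.10 with quantile normalization, so the order of these 2 is not settled. The gap between Rad50 and Mre11a was 0.62. It lay between 0.53 and 0.65 with quantile normalization, cyclic loess, normexp and in the authors' deposited table. Each of these values rests on 1 spot of 1 probe, and the gap is smaller than the 1.15 that the probes of a gene can lie apart. The order of Rad50 and Mre11a is therefore not settled either.

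Among the breast cancer susceptibility proteins that load recombinase, Brca1 was lower in SoNar-high cells, while its partner Bard1 was higher only as a mean of its probes. Brca1 had signals of 79.1 in SoNar-high cells and 94.2 in SoNar-low cells, a log2 difference of -0.40. That value kept its sign but not its size: it was -0.18 with the shared-spot percentile, -0.23 after centring, -0.86 with cyclic loess and -0.89 with quantile normalization, and passed 2-fold with median scaling (-1.01) and in the authors' deposited table. The gene is in the lowest decile of level. Bard1 had a mean log2 difference of 0.46 over 3 probes that do not point 1 way. Its brightest probe had signals of 1006 in SoNar-high cells and 1098 in SoNar-low cells (-0.27). The others had 208.4 and 139.6 in SoNar-high cells, against 104.0 and 73.3 in SoNar-low cells (0.86 and 0.78). Bard1 is thus higher in its dimmer probes alone. Brca2, which delivers the recombinase, had signals of 1524 in SoNar-high cells and 1555 in SoNar-low cells (-0.17). Palb2, the bridge between BRCA1 and BRCA2, was at 0.01 with probes at 0.27 and -0.25, and Blm, the helicase that dissolves recombination intermediates, was at -0.11. Of 18 further recombination genes 17 were measured, with a median of 0.05, 9 above 0 and 8 below. Eme1, a partner of the structure-specific nuclease MUS81, was the highest at 0.96 and Slx4, a scaffold of such nucleases, the lowest at -0.76.

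In crosslink repair the genes of the paired proteins FANCD2 and FANCI, which are ubiquitinated together at a blocked fork, differed in direction with the main scaling. Fancd2 had signals of 657.1 in SoNar-high cells and 404.3 in SoNar-low cells, a log2 difference of 0.56, the second highest of the 37. Fanci had signals of 1042 in SoNar-high cells and 1174 in SoNar-low cells (-0.32). The gap between them, 0.87, was 0.68 in the authors' deposited table and 0.74 to 0.78 with quantile normalization, cyclic loess and normexp. With median scaling Fancd2 was at -0.06 and Fanci at -0.93, both below 0. Each value rests on 1 spot of 1 probe, and the gap is smaller than the 1.15 that the probes of a gene can lie apart. The order of Fancd2 and Fanci is therefore not settled. Fanca, a subunit of the ligase complex that modifies the pair, had signals of 3093 in SoNar-high cells and 4868 in SoNar-low cells (-0.80). Of 11 further genes of this route 8 were measured, with a median of -0.12, from Fancb at 0.11 to Fancf at -0.77, both also subunits of that ligase complex. The other 3, Fancc, Fancg and Fan1, were detected in SoNar-high cells alone, as were 26.4% of all 20618 genes with a named probe. Fan1 was detected by 1 of its 2 probes. With no filter on dim probes it was 2-fold lower in SoNar-high cells, so no direction is read from detection alone.

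Mismatch repair is represented by 2 genes. Msh6, which recognises single mismatches as part of MutS alpha, had signals of 5515 in SoNar-high cells and 8520 in SoNar-low cells, a log2 difference of -0.77. Pms2, the endonuclease subunit of MutL alpha, averaged -0.06, but its probes contradict each other. The brighter had signals of 1308 in SoNar-high cells and 2136 in SoNar-low cells (-0.85), and the dimmer 497.2 and 271.4 in the same order (0.73). No direction can be read for Pms2. Among 9 further genes of the route, which include the replication clamp and its loader, 8 were measured with a median of -0.34, from the clamp gene Pcna at -0.50 to the loader gene Rfc5 at 0.13.

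Nucleotide excision held the lowest of the 37 genes. Ddb1, an adaptor of the ubiquitin ligase that finds ultraviolet lesions and serves many other substrates, had signals of 11694 in SoNar-high cells and 20624 in SoNar-low cells. Its log2 difference of -0.96 is 1.95-fold lower in SoNar-high cells, stood at percentile 2.10 of all measured genes, and ranged from -1.58 with median scaling to -0.73 with cyclic loess. Ddb2, the lesion-binding partner and a p53 target, had signals of 262.5 in SoNar-high cells and 297.9 in SoNar-low cells (-0.33). Xpa, the scaffold of the incision complex, had probes at -0.73 and -0.32, which agree in sign, and a mean of -0.52. Ercc1, which pairs with the nuclease XPF, had signals of 263.2 in SoNar-high cells and 243.2 in SoNar-low cells (-0.03). Of 15 further genes 13 were measured, with a median of -0.18, 4 above 0 and 9 below. Ercc5, the other incision nuclease, was the highest at 0.32. Cetn2, a centrin that stabilises the lesion sensor XPC, was the lowest at -1.09. Of the 80 measured further repair genes 0 were 2-fold higher and 1, Cetn2, was 2-fold lower, beside 4.87% and 1.68% of all genes. Cetn2 was at -0.89 with quantile normalization, where Rad51d and Fancf were 2-fold lower in its place, beside 3.33% of all genes. With median scaling 22 of the 80 were 2-fold lower, beside 31.4% of all genes.

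The checkpoint kinases had a median log2 difference of -0.08, the nearest to 0 of the routes with the 75th percentile scaling but not with the shared-spot percentile, where it was 0.14 against 0.10 for homologous recombination. Their 4 log2 differences lay between -0.18 and 0.00, and 3 were above the median of all genes. Atr, the kinase that answers stalled forks, had signals of 3919 in SoNar-high cells and 3860 in SoNar-low cells (log2 difference -0.12). Chek1, its effector, had signals of 1778 in SoNar-high cells and 1642 in SoNar-low cells (-0.03), and Chek2, the effector of ATM, 228.2 and 234.3 in the same order (-0.18). With 1 array per group, closeness to 0 does not show that the kinases were expressed alike. The direction of this group is not settled either, since 0 of the 4 lay below 0 with the shared-spot percentile and all 4 did with median scaling.

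Atm, the kinase that answers broken ends, is printed in 10 spots of 1 probe and 1 spot of another. The repeat spots ranged from 411.1 to 473.4 with a median of 445.3 in SoNar-high cells, and from 301.7 to 511.7 with a median of 421.5 in SoNar-low cells. Before scaling, 5 spots of the SoNar-low array lay below every SoNar-high spot and 3 above every one. Scaling shifts the spots of the arrays against each other, so no direction is read from these counts or medians. After scaling, the mean log2 difference of the repeat spots was -0.02 ± 0.34 (SD over 10 spots of 1 array pair). The second probe gave 0.02. The spots of Atm had an SD of 0.07 on the log2 scale in SoNar-high cells and 0.30 in SoNar-low cells. Over all 193 repeated probes the median SD was 0.06 in SoNar-high cells and 0.13 in SoNar-low cells. The 16 further checkpoint and break-sensing genes were all measured, with a median of -0.33, 4 above 0 and 12 below. Clspn, the adaptor for CHK1 activation, was the highest at 0.35 and Rad17, the loader of the checkpoint clamp, the lowest at -0.99.

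**Figure D5:**
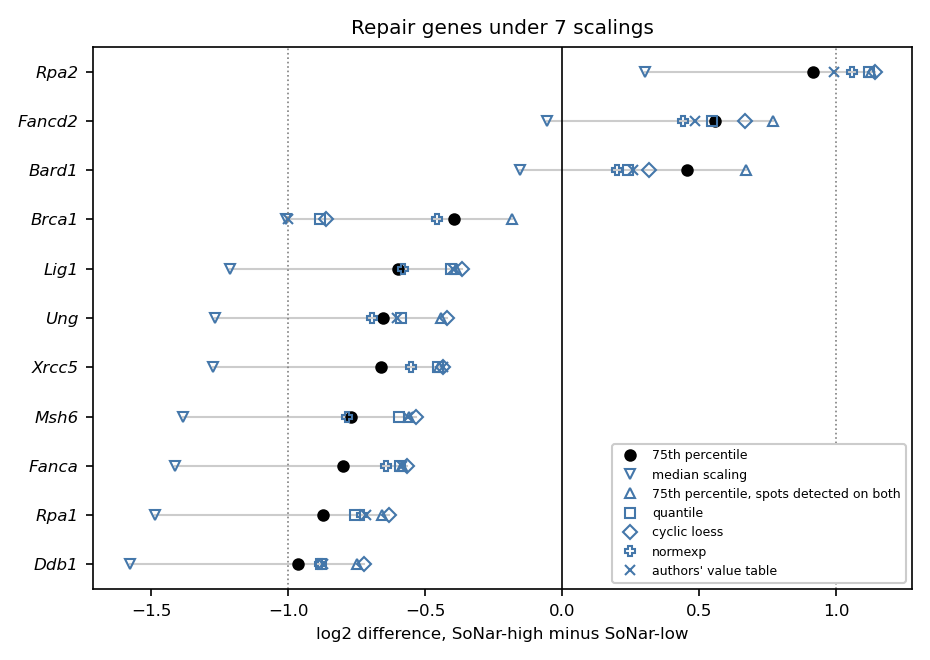
Log2 difference (horizontal axis, SoNar-high minus SoNar-low) of 11 repair genes under 7 scalings, with 1 array per group. Black points are the values given in the text and open symbols and crosses the alternatives; Rpa2 stays above 0 (0.30 to 1.14) and the 8 lowest genes of the plot stay below 0 in all 7, while Fancd2 and Bard1 cross 0 with median scaling.

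Several measured facts stand beside these values. Genes of proliferation, which share their use in S phase with many repair genes, had a median of -0.31 for the log2 difference of all 14 listed genes, 5 above 0 and 9 below. Cdk1, named here after its value was seen, was the 1 with a 2-fold difference, at 1.87. Markers of the B lineage were measured for 11 of 14 genes with a median of -0.14 and a summed signal of 60950 in SoNar-high cells and 65805 in SoNar-low cells. Cd79b, a signalling chain of the B cell receptor, had 14376 and 12625 in the same order, while Igll1 and Rag1 were well above background on neither array. Neutrophil markers were measured for 11 of 12 genes, with a median of 0.48 and 10 above the median of all genes. Their summed signal was 25014 in SoNar-high cells and 18117 in SoNar-low cells. Of the other marker lists, 2 of 6 monocyte, 3 of 7 erythroid, 4 of 7 T cell, 2 of 5 natural killer and 4 of 6 stromal genes were measured, with median log2 differences of 0.81, 1.67, 0.32, 1.17 and 0.86. Their summed signals in SoNar-high and SoNar-low cells were 308.8 and 146.8 for monocytes, 15288 and 23096 for erythroid cells, 3140 and 3398 for T cells, 349.5 and 140.0 for natural killer cells and 1406 and 715.6 for stroma. Of the erythroid sum, Hemgn alone held 14153 in SoNar-high cells and 22791 in SoNar-low cells (log2 difference -0.83), while Hba-a1 and Ermap were at 1.88 and 1.67. Ccr2, Cd3d, Klrb1c, Gzmb and Cxcl12 were well above background on neither array. The part of these other cells in the repair gene values was not tested, and in sorted cells measured in bulk, fewer cells of a type and less RNA per cell cannot be told apart.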

How the data were processed

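Per the file headers, Agilent Feature Extraction 11.0.1.1 made the spot intensity values (linear scale, local background subtracted, detrended) and a 0 or 1 mark of detection per spot. The submitters' processing notes give version 9.1. The authors' deposited table of log2 values, made by steps not stated in any source at hand, served as an alternative. Groups follow the source names. Here each array was scaled by subtracting, on the log2 scale, the 75th percentile of its gene spots' processed signal. Then 685 outlier spots were dropped, spots of a probe averaged, and a gene's probes averaged where well above background on both arrays. RefSeq accessions named 27115 of 39085 probes (GRCm38.p6 gene table). The arrays' annotation is of another build, so gene coordinates are not printed.

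With 1 array per group no p-value was computed, and precision is limited by that number. The members were taken by name, and they and the other lists were chosen with earlier results of these data known. All 37 genes are named, and from each list of further repair genes its highest and lowest. Of the cell type markers, 2 are not reported here by name. The calculation was tested on simulated data, with differences larger than any of the 37 genes showed and noise taken from repeat spots. The gap between probes of a gene was not simulated, so that test says nothing of differences as small as those described here. The 13 alternatives were 5 scalings (median, quantile, cyclic loess, shared-spot percentile, centring), normexp (offset 50), 4 dim-probe filters, the brightest probe of a gene, retained outlier spots, and the authors' table. Tools were Python 3.11.15, numpy 2.4.6, pandas 2.3.3, R 4.3.3 and limma 3.58.1.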

Additional observations from a re-analysis of the deposited data

Results flagged for a closer look

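The second probe of Rad50 did not enter the gene's value, because only SoNar-high cells gave it a signal well above background. That signal was 119.2, while 95% of the 153 negative control spots of the same array lay in a range ending at 5.50. In SoNar-low cells the probe gave 45.0, where the control range ended at 13.3. With no filter on dim probes, Rad50 averages 0.69 on the log2 scale over both probes, against 0.11 for the probe used.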

How the results depend on the processing

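No paired analysis was possible because 1 array per group leaves nothing to pair or to leave out. Median scaling moved the median of all genes by -0.61 and the shared-spot percentile moved it by 0.21. The median log2 difference of the repair genes was -0.37, and became -0.98 with median scaling, -0.16 with the shared-spot percentile and -0.20 after centring. Repair genes at least 2-fold higher, 0 in the main setting, became 1 with quantile normalization, cyclic loess, the shared-spot percentile, centring and normexp, each time Rpa2. Those 2-fold lower, also 0, became 18 with median scaling and 1, Brca1, in the authors' table. Against 1 gene 1.5-fold higher, there were 0 with median scaling, 2 with cyclic loess, no filter and with the filter asking for either array, and 3 with the shared-spot percentile and centring. Against 7 genes 1.5-fold lower, there were 33 with median scaling, 4 with cyclic loess and centring, and 3 with the shared-spot percentile. The 1.5-fold shares of all genes under the alternatives are not given here, so these counts have nothing to be set beside. Over all genes, the 512 2-fold higher became 139 with median scaling, 806 with the shared-spot percentile, 262 with normexp, 2775 with no filter, 3203 when either array sufficed and 337 with the stricter filter. The 177 lower became 3306 with median scaling, 67 with the shared-spot percentile, 350 with quantile normalization, 300 with cyclic loess, 70 after centring, 60 with normexp, 1751 with no filter, 114 with 1 common limit and 430 in the authors' table. Shifts of a whole array and filters change such counts by construction, and the cause was not tested for quantile normalization, cyclic loess, normexp or the authors' table. Of the 37 genes 22 kept their sign in all 13 alternatives, Rpa2 above 0 and 21 below. That count is partly fixed by construction. The 4 dim-probe filters and the retained outlier spots changed the sign of 0 of the 37, and the brightest probe cannot change the 31 genes on 1 probe. Median scaling lowered every gene equally, which favours signs below 0. The share of all genes that kept their sign is not given here. The SoNar-low array, with fewer spots above background, limits what the dimmest genes such as Brca1 can show.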
